A study of Homo sapiens with 10 samples.

Results

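Keratins are the intermediate filament proteins of epithelial cells, and their transcripts were compared here between cells with and without overexpressed DAZL. Members were taken by gene name, as every entry named KRT followed by a number and at most 1 further letter from A to C. This gave 65 entries with 55 gene names among the 64940 genes of the table. The other 10 entries are further identifiers of names already counted, and each was listed at 0 in all 4 libraries.

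The cells derive from H9, an established line of human embryonic stem cells (hESCs), and RNA was sequenced in 2 control and 2 oeDAZL libraries. The control group has the genotype wt, and its sample labels give SD cells obtained by spontaneous differentiation, without spelling out SD. The oeDAZL group consists of hESC-derived primordial germ cell-like cells (hPGCLCs) that overexpress DAZL, an RNA-binding protein of germ cells. The design text of the deposit and the study's supplement call the control cells PGCLCs instead, so what DAZL did and what the culture did cannot be told apart. The study's methods deliver DAZL with a lentivirus while the cells differentiate in BMP4 and BMP8a, and they describe a control virus with GFP for the miRNA libraries, while the sample labels name neither BMPs nor a virus for these control cells. Nothing in the labels says that the libraries of a group came from separate cultures, so the p-values below measure only the spread between these libraries.

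Keratins form filaments as pairs of an acidic type I chain and a basic type II chain, which anchor to desmosomes and give epithelia mechanical strength. Simple epithelia, including the earliest epithelia of the embryo, use KRT8 and KRT18 with KRT7, KRT19 or KRT20. Stratified epithelia use others: KRT5 with KRT14 in basal cells, KRT1 with KRT10 in differentiating epidermis, and KRT6 with KRT16 and KRT17 in wounded or fast-growing epidermis and in skin appendages.

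The values are TPM, a level that is scaled for transcript length and to the same total in each library. The table holds no counts, which leaves depth unknown, so no counting interval is given, and 0 means only that a gene is listed at 0. DAZL itself was at 0 and 0.0333 TPM in control, against 102 and 101 TPM in oeDAZL, which fits the labels. Of 10 markers of primordial germ cells, 8 had a mean of at least 1 TPM. DAZL was the only one of the 8 to be called, by the rule given below for the comparison of the groups. Such calls were rare among all genes with this mean, at 0.126% higher and 0.563% lower. No call among the other markers is therefore near the background. TFAP2C lay between 44.3 and 53.9 TPM, whereas SOX17 lay between 2.52 and 3.35 TPM, NANOS3 between 0.732 and 1.66 TPM, and the late germ cell gene DDX4 was at 0 throughout. POU5F1, shared with pluripotent cells, was at 13.6 and 10.6 TPM in control and at 22.4 and 20.4 TPM in oeDAZL, without overlap, at a log2 fold change of 0.79 and an adjusted limma p of 0.0896. SOX17, NANOS3 and DDX4 were thus low or at 0 in both groups, and POU5F1 was higher in oeDAZL without being called. Of the 8 markers with a mean of at least 1 TPM, 2 had a positive log2 fold change, DAZL and POU5F1, and 6 a negative one. A negative one was found for 65.3% of all genes with such a mean, so 6 of 8 is near the background. With median-of-ratios scaling, this share of all genes was 47.6%. NANOS3, at 1.39 and 1.66 TPM in control against 1.07 and 0.732 TPM in oeDAZL, was lower in both oeDAZL libraries, as were KIT and PRDM1. Over all genes with a mean of at least 1 TPM, 38.4% had both oeDAZL libraries below both control libraries. Both were above, as for POU5F1, in 16.0%.

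Simple epithelial keratins made up nearly all keratin RNA in every library. KRT8, the type II chain of simple epithelia, was at 6421 and 6792 TPM in control, against 7321 and 7269 TPM in oeDAZL. Its type I partner KRT18 was at 4915 and 5496 TPM in control and at 5911 and 5738 TPM in oeDAZL. KRT19, a short type I keratin that lacks most of the tail domain, was at 4250 and 4124 TPM in control and at 4608 and 4688 TPM in oeDAZL. These genes ranked between 11 and 20 among all genes in each library. The groups did not overlap for any of the 3, with oeDAZL higher. The difference of KRT19 was however -0.0086 on the log2 scale with quantile normalization. Of all genes with a mean of at least 1 TPM, 16.0% had both oeDAZL libraries above both control libraries and 38.4% below both. The same shares apply to the other keratins with such a mean. KRT7, a type II keratin of glandular and ductal epithelium and of trophoblast, was at 567 and 633 TPM in control and at 675 and 647 TPM in oeDAZL, again without overlap. KRT20, which marks the lining of the gut, was listed at 0. Together KRT7, KRT8, KRT18 and KRT19 took 99.6% of keratin TPM in each control library, and 99.4% in each oeDAZL library.

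The stratified keratins were far lower than the simple ones. KRT16, the type I keratin of wounded and fast-growing epidermis, was at 16.9 and 18.0 TPM in control, against 49.6 and 45.8 TPM in oeDAZL. KRT17, another stress-responsive type I keratin that is also found in hair and nail, was at 12.7 and 15.8 TPM in control and at 23.3 and 20.9 TPM in oeDAZL. The groups did not overlap for either gene, and the gap was wider for KRT16. KRT14, the type I chain of basal epidermal cells, was at 0.118 and 0.290 TPM in control and at 0.758 and 0.191 TPM in oeDAZL, so its groups overlapped. KRT10, the suprabasal epidermal type I keratin, was at 22.7 and 21.9 TPM in control and at 20.5 and 20.0 TPM in oeDAZL. KRT15, a basal type I keratin known from the hair follicle bulge, lay between 1.80 and 2.19 TPM. In TPM as deposited, KRT10 was lower and KRT15 higher in both oeDAZL libraries, each by a small margin.

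Outside these classes, KRT80 and KRT23 were also measured. KRT80, a type II keratin, was at 9.33 and 12.2 TPM in control and at 17.0 and 15.4 TPM in oeDAZL. The type I keratin KRT23 was at 5.62 and 3.89 TPM in control and at 2.55 and 2.63 TPM in oeDAZL. The groups were apart for both genes, in opposite directions.

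**Figure D1:**
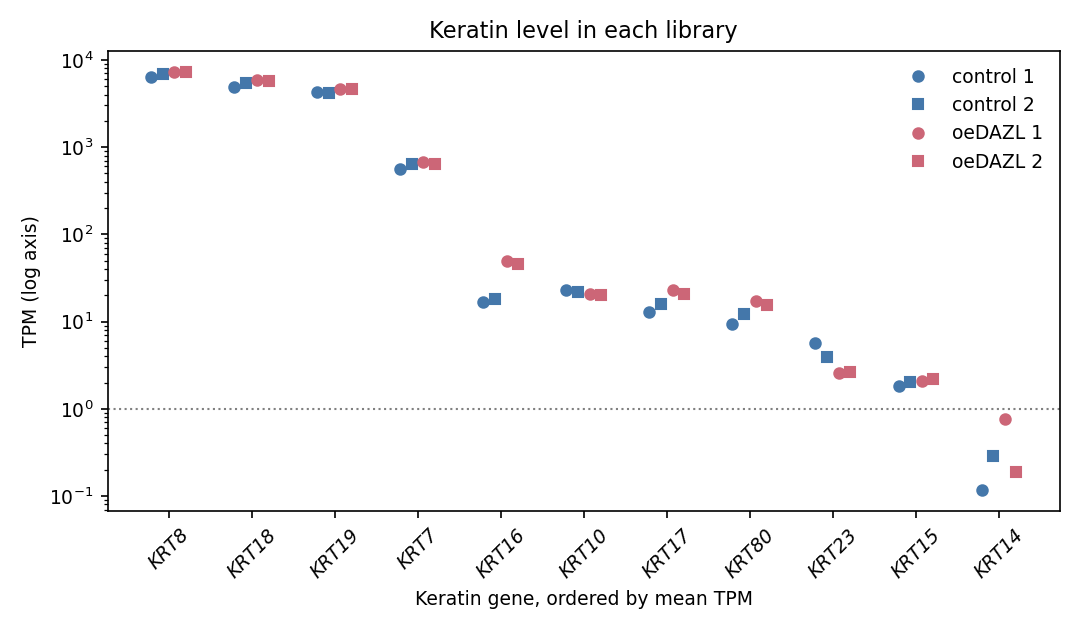
TPM on a log axis in each of the 4 libraries (control blue, oeDAZL red; circle replicate 1, square replicate 2) for the 10 keratins with a mean of at least 1 TPM, which is the dotted line, and for KRT14. KRT16 moved from 16.9 and 18.0 TPM to 49.6 and 45.8 TPM, while KRT19 lay between 4124 and 4688 TPM.

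The remaining keratins were near or at 0. Of the 65 entries, 10 had a mean of at least 1 TPM and were tested, 13 were above 0 with a lower mean, and 42 were at 0 in all libraries. The 13 low genes, KRT14 among them, had means between 0.0127 and 0.351 TPM, and none exceeded 0.859 TPM in any library. Of these, 11 overlapped between the groups and 2 were lower in both oeDAZL libraries, namely KRT79 and KRT86. Over all 16564 genes above 0 with a mean under 1 TPM, 18.1% were lower in both oeDAZL libraries and 73.5% overlapped, so 2 of 13 is near the background. KRT79 was at 0.737 and 0.667 TPM in control and at 0 in both oeDAZL libraries. A keratin above 0 was listed for 21 and 19 entries in the control libraries and for 16 and 15 entries in the oeDAZL libraries. Over all genes the corresponding numbers were 28019 and 27729 in control and 26695 and 27350 in oeDAZL, and the part of depth in this was not tested.

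None of the hair or inner root sheath keratins reached a mean of 1 TPM: 15 of 17 hair keratins and 7 of 9 inner root sheath keratins were at 0. Of 21 stratified keratins, 4 were tested, 8 were low and 9 were at 0, among them KRT13 and KRT4 of the oesophagus and KRT6A and KRT6C, the usual type II partners of KRT16. KRT6B was listed at 0.110 TPM in 1 control library and at 0 elsewhere. KRT5, the defining type II keratin of basal epidermis, had a mean of 0.0528 TPM, and KRT1 of 0.0490 TPM. The defining type II partners of the stratified type I keratins were therefore at or near 0 while KRT10, KRT16 and KRT17 were measured.

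The comparison of oeDAZL with control asked which keratins differ when DAZL is overexpressed. It was made with limma on log2(TPM + 1) over all 16687 genes with a mean of at least 1 TPM, and a fold change on this scale understates the change of low genes. A gene was called when its fold change was at least 2 and its unadjusted p at most 0.05, the thresholds of the study. The study applied them to read counts with DESeq2, a different test, and reported more genes in each direction. The numbers of calls are therefore not comparable with those of the study. By the rule used here KRT16 was called higher, and no other keratin was called in either direction. Over all tested genes, 21 were called higher (0.126%) and 94 lower (0.563%), and with quantile normalization 38 and 51. Calls were 35 and 85 without control replicate 1, 87 and 235 without control replicate 2, 44 and 131 without oeDAZL replicate 1, and 45 and 187 without oeDAZL replicate 2, each time with KRT16 as the called keratin.

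KRT16 rose from 17.4 ± 0.717 TPM (SD, n = 2) to 47.7 ± 2.66 TPM (SD, n = 2), a ratio of the means of 2.73. Its log2 fold change was 1.40 with a standard error of 0.083, at an unadjusted limma p of 2.26e-06 and an adjusted p of 0.0188. This p was the second lowest of the 16687, and the fold change had rank 11. An adjusted p of at most 0.05 was reached by 10 genes (0.0599%), and KRT16 was the only keratin among them; without control replicate 2 it was reached by 673 genes, 3 of them keratins (KRT16, KRT17 and KRT18), and without control replicate 1 by 2 genes and no keratin. The limma adjusted p of KRT16 was 0.322 without a filter on TPM, 0.222 without limma's trend and 0.0870 without control replicate 1, within a range of 0.0152 to 0.322 over the alternatives that keep the numbers of the libraries, and the gene was called in each of them. In bulk RNA, more cells that express a gene and more RNA per cell cannot be told apart.

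An unadjusted p of at most 0.05 was reached by 4 keratins that were higher, against 838 (5.02%) of all tested genes, and by 1 that was lower, against 2530 (15.2%). The higher ones were KRT16, KRT17, KRT80 and KRT19, and the lower one was KRT23. With a library left out, all tested genes at this p numbered 779 higher and 1721 lower without control replicate 1, 1341 and 3295 without control replicate 2, 357 and 1226 without oeDAZL replicate 1, and 527 and 1608 without oeDAZL replicate 2. The keratins numbered 5 higher and 0 lower, 7 and 1, 3 and 0, and 3 and 0 in the same order. KRT23 did not reach this p without control replicate 1 (0.0756), oeDAZL replicate 1 (0.0589) or oeDAZL replicate 2 (0.0502). KRT19 did not reach it without oeDAZL replicate 1 (0.275) or oeDAZL replicate 2 (0.351), without a filter on TPM (0.151), without limma's trend (0.122), with the replicate block (0.118) or with quantile normalization (0.870). With the replicate block and its numbers crossed, KRT19 also did not reach it, at an unadjusted limma p of 0.0527. KRT17 had a log2 fold change of 0.60 with a standard error of 0.13 and an adjusted limma p of 0.105. KRT80 followed at 0.56 with a standard error of 0.15 and an adjusted limma p of 0.135. For KRT23 the log2 fold change was -0.66 with a standard error of 0.20, and the adjusted limma p was 0.170. None of these 3 genes reached the 2-fold change of the call, and none passed the adjustment with all libraries and no block.

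The 4 tested simple keratins had log2 fold changes of 0.14 for KRT8, 0.16 for KRT18, 0.15 for KRT19 and 0.14 for KRT7. Without control replicate 1 these were 0.10, 0.084, 0.17 and 0.063, and with quantile normalization 0.042, 0.050, -0.0086 and 0.084, so how close they lie depends on the libraries and the scaling. Their adjusted limma p-values lay between 0.221 for KRT19 and 0.302 for KRT7. The 95% interval of KRT8 ran from -0.0098 to 0.30, so the fit allows anything from no difference to a modestly higher level. KRT10 was at -0.13 and KRT15 at 0.10, with limma adjusted p-values of 0.413 and 0.802. KRT10 was at -0.037 with median-of-ratios scaling and -0.047 with quantile normalization, and KRT15 ran from 0.051 without control replicate 1 to 0.28 with quantile normalization.

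**Figure D2:**
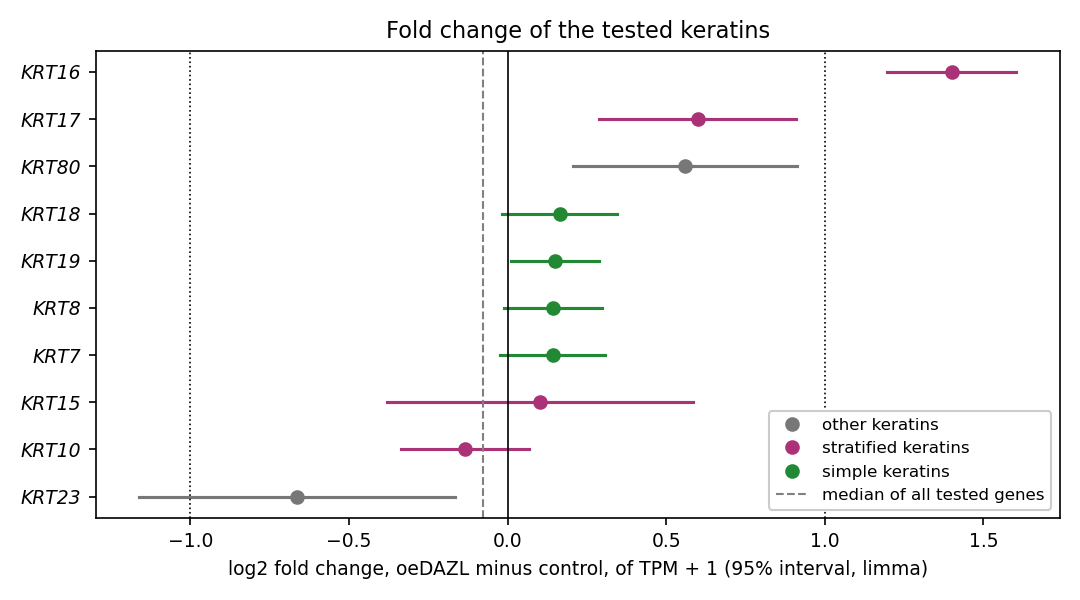
Log2 fold change of TPM + 1 in oeDAZL minus control for the 10 tested keratins, with the 95% interval from limma as a bar and the class of each keratin as its colour. The dashed line is the median of all tested genes at -0.078, the dotted lines mark a 2-fold change, and KRT16 at 1.40 is the only keratin beyond them.

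By position of the libraries alone, 8 of the 10 tested keratins had both oeDAZL libraries above both control libraries, as did 2677 (16.0%) of all tested genes. The other 2, KRT10 and KRT23, had both below, as did 6402 (38.4%); chance alone would give 16.7% in each direction. The sign of each keratin was the same under every scaling tried except for KRT19, which was at -0.0086 with quantile normalization. The balance of all genes does depend on scaling: with median-of-ratios scaling, an unadjusted p of at most 0.05 was reached by 1872 higher and 1366 lower genes, in place of 838 and 2530. With that scaling 7 keratins were higher and 1 was lower at this p.

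The median log2 fold change was 0.15 over the 4 tested simple keratins and 0.35 over the 4 tested stratified keratins, beside -0.078 over all tested genes. The simple median was 0.046 under quantile normalization, 0.25 under median-of-ratios scaling, 0.093 without control replicate 1 and 0.20 without control replicate 2. The simple keratins ran from 0.14 to 0.16, whereas the stratified ones ran from KRT10 at -0.13 to KRT16 at 1.40. The stratified median hangs on which low genes are counted, and was -0.017 over 12 genes without a filter on TPM and 0.60 over 3 genes with a mean of at least 5 TPM. By type, the median was 0.15 over 7 tested type I keratins and 0.14 over 3 tested type II keratins.

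Summed over all members, keratins took 1.62% and 1.71% of the TPM of the control libraries and 1.86% and 1.85% of that of the oeDAZL libraries. The sums were 16226 and 17120 TPM in control against 18632 and 18450 TPM in oeDAZL. The mitochondrial share of TPM parted the groups in the same direction, at 12.6% and 13.4% in control and 14.1% and 13.9% in oeDAZL, and its part in the keratin sums beyond rescaling was not tested. The log2 ratio of the mean keratin sums was 0.15, it was 0.17 with TPM rescaled without mitochondrial genes, and it was 0.25 with median-of-ratios scaling and 0.037 with quantile normalization. With 2 libraries against 2, an exact two-sided permutation test cannot give a p under 0.333, and that is the value here. It was likewise the value of every other ratio or sum whose groups did not overlap, among 16 such measures tested, with an adjusted p of 0.485.

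The stratified share of keratin RNA was higher with oeDAZL. Stratified keratins took 0.350% and 0.346% of keratin TPM in control, against 0.520% and 0.486% in oeDAZL. The summed TPM of simple keratins was 284 and 288 times that of stratified keratins in control, and 191 and 205 times in oeDAZL (exact permutation p = 0.333). Most of this difference was KRT16: the stratified sum went from 56.8 and 59.2 TPM to 96.8 and 89.6 TPM, and without KRT16 it went from 39.8 and 41.3 TPM to 47.2 and 43.8 TPM. The ratio of type II to type I keratin TPM was 0.759 and 0.768 in control and 0.755 and 0.754 in oeDAZL. These groups did not overlap either (exact permutation p = 0.333).

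Of 12 type II and type I pairs considered, 3 had both members at a mean of at least 1 TPM, and all were simple pairs. The ratio of KRT8 to KRT18 TPM was 1.31 and 1.24 in control and 1.24 and 1.27 in oeDAZL. That of KRT8 to KRT19 was 1.51 and 1.65 in control and 1.59 and 1.55 in oeDAZL, and that of KRT7 to KRT19 was 0.133 and 0.153 in control and 0.147 and 0.138 in oeDAZL. In each pair the groups overlapped. By contrast, KRT16 stood at 2.64 TPM per 1000 TPM of KRT8 in each control library, and at 6.77 and 6.30 in the oeDAZL libraries.

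KRT16, KRT14 and KRT17 are close paralogues in the type I cluster of chromosome 17, all on the minus strand. In hg38, with GENCODE 44, the KRT16 gene spans chr17:41609778-41615899, KRT17 chr17:41619442-41624842 and KRT14 chr17:41582279-41586895. Their canonical coding sequences hold 1419, 1296 and 1416 bases in 8 coding exons each. Aligned end to end, KRT16 matched KRT14 at 88.6% and KRT17 at 79.4% of aligned bases. The likeness is uneven, since the first coding exon of KRT16 matched that of KRT14 at 98.1% and that of KRT17 at 78.2%, while exon 8 matched at 66.2% and 62.2%.

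The sequences show where reads of these genes can and cannot be told apart. Among 454 windows of 60 bases in the 5 coding exons of equal length, the one below is where KRT16 is most like both paralogues, in exon 6. It lies at chr17:41610344-41610403 in KRT16, chr17:41620672-41620731 in KRT17, chr17:41583248-41583307 in KRT14, chr17:16830408-16830467 in the pseudogene KRT16P2 and chr17:20502078-20502137 in the pseudogene KRT16P3 (hg38, minus strand). Each is written 5′ to 3′ in the sense of the gene, with the bases that differ from KRT16 in capitals.
KRT16: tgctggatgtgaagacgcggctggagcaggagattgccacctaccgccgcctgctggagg
KRT17: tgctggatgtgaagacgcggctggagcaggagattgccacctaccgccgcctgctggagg
KRT14: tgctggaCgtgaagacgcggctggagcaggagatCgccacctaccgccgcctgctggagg
KRT16P2: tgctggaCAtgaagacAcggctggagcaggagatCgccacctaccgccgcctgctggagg
KRT16P3: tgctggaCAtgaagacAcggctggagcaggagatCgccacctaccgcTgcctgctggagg
KRT17 differs from KRT16 at 0 of these bases, KRT14 at 2, KRT16P2 at 4 and KRT16P3 at 5. A read from within this window would fit KRT16 and KRT17 equally well.

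Among the same windows, the one where KRT16 is least like its paralogues lies in exon 5, at chr17:41610886-41610945 in KRT16, chr17:41620998-41621057 in KRT17 and chr17:41583583-41583642 in KRT14. The same stretch of the pseudogenes is at chr17:16830950-16831009 in KRT16P2 and chr17:20502620-20502679 in KRT16P3 (hg38, minus strand), with capitals as before.
KRT16: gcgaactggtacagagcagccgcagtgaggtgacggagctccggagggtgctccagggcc
KRT17: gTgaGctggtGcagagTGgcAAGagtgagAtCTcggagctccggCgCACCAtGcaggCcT
KRT14: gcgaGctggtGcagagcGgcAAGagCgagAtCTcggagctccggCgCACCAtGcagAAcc
KRT16P2: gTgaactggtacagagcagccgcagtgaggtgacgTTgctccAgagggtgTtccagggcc
KRT16P3: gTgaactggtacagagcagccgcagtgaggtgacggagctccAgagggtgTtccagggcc
Here KRT17 differs at 20 bases and KRT14 at 19, whereas KRT16P2 differs at 5 and KRT16P3 at 3. In this window the pseudogenes are closer to KRT16 than the paralogues are. Exons 1, 7 and 8, whose lengths differ between the genes, were outside the search, and exon 8 as a whole has a lower identity than this window.

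Over the whole canonical KRT16 transcript, 21.8% of its words of 50 bases also occur in a transcript of another gene, as do 7.12% of its words of 100 bases and 0.729% of its words of 150 bases. For KRT17 these shares were 17.4%, 0.353% and 0, and for KRT14 24.2%, 6.05% and 0.605%. Of the words of 100 bases of KRT16, 59 occur in KRT14, 52 in KRT16P3 and 17 in KRT16P2. The authors kept uniquely mapped reads, so shared stretches would go uncounted or be split, and the TPM of these genes is uncertain to that extent. How far this bears on the KRT16 difference was not tested with reads. Sharing was not limited to these genes, since KRT8 shared 39.2% and KRT18 35.3% of their words of 50 bases. At 100 bases the share was 7.12% for KRT8 and 0 for KRT18, and at 150 bases it was 0 for both. The TPM of KRT8 and KRT18 is therefore uncertain in the same way. KRT19, KRT7, KRT15 and KRT80 shared between 0.418% and 1.79% of their words of 50 bases. KRT10 and KRT23 shared no word of 50 bases with another gene.

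Within these 3 genes, KRT16 took 56.9% and 52.7% of the summed TPM in control, against 67.4% and 68.5% in oeDAZL. The mean share was 13.1 percentage points higher in oeDAZL (exact permutation p = 0.333, the lowest possible). KRT17 took 42.8% and 46.4% in control and 31.6% and 31.2% in oeDAZL, and KRT14 took between 0.285% and 1.03%. So the share of KRT17 was lower in oeDAZL although its TPM was higher. The ratio of KRT16 to KRT17 TPM was 1.33 and 1.14 in control and 2.13 and 2.20 in oeDAZL, a difference of 0.82 on the log2 scale. Such a ratio does not move when a library is rescaled.

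**Figure D3:**
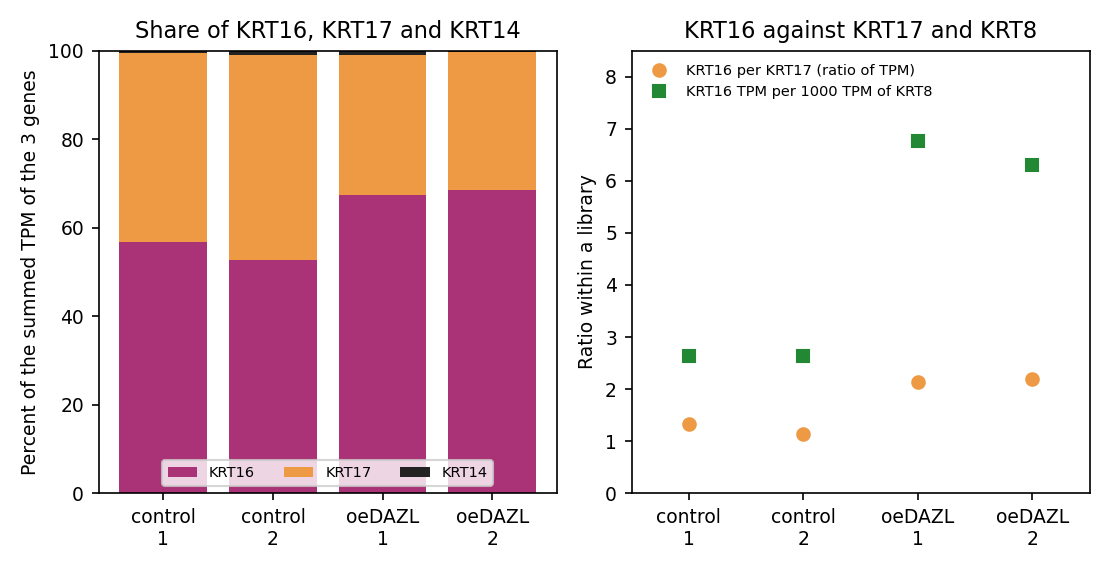
Left, the percent of the summed TPM of KRT16, KRT17 and KRT14 that each gene takes in each library. Right, the ratio of KRT16 to KRT17 TPM and the KRT16 TPM per 1000 TPM of KRT8 in each library, where the oeDAZL libraries at 2.13 and 2.20, and at 6.77 and 6.30, lie above the control libraries.

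Pseudogenes of KRT16 were listed at levels that are not small beside KRT16 itself. KRT16P3 was at 6.73 and 5.84 TPM in control and at 9.87 and 9.93 TPM in oeDAZL, with a log2 fold change of 0.58 and an adjusted limma p of 0.110. KRT16P2 was at 7.26 and 5.56 TPM in control and at 7.83 and 8.22 TPM in oeDAZL, with a log2 fold change of 0.29 and an adjusted limma p of 0.347. KRT16P1 was at 2.88 and 2.27 TPM in control and at 3.41 and 4.55 TPM in oeDAZL. Its log2 fold change was 0.48, with an adjusted limma p of 0.265. These 3 were the KRT16 pseudogenes with a mean of at least 1 TPM. In each the oeDAZL libraries were above both control libraries, as in 16.0% of all tested genes, and none was called. The 6 pseudogenes named after KRT16, in 8 entries of which 2 are second identifiers at 0, summed to 104% and 78.5% of the KRT16 level in control and to 43.0% and 50.2% in oeDAZL. With its numbered pseudogenes added to it, an alternative chosen after seeing the data, KRT16 was still called, at a log2 fold change of 1.05. KRT16 and its pseudogenes together, as a share of the 3 genes and their pseudogenes, differed by 8.86 percentage points.

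Over the family, 158 entries for 147 named keratin pseudogenes were listed, of which 78 names were at 0 in all libraries and 10 had a mean of at least 1 TPM, and none was called. They summed to 59.2 and 60.9 TPM in control and to 65.7 and 66.0 TPM in oeDAZL, which is about 0.353% to 0.365% of keratin TPM. The highest was KRT8P3, a processed copy of KRT8, at 16.4 and 18.4 TPM in control and at 20.5 and 20.1 TPM in oeDAZL.

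Other genes overlap the abundant keratins on the genome. KRT8 and KRT18 overlap each other on opposite strands, KRT7 overlaps KRT7-AS at a mean of 7.17 TPM, and KRT10 overlaps TMEM99 at a mean of 13.8 TPM. Whether the counting used strand is not given in the sources used here, so reads from such pairs cannot be told apart where they overlap. KRT16 and KRT17 overlap no other gene of the table that has a position in GENCODE 44, as 90% of its genes do.

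Within 100 kb of KRT16, 5 genes had a mean of at least 1 TPM, namely KRT15, KRT19, KRT16, KRT17 and EIF1. EIF1, a translation initiation factor that lies 73.0 kb away, was at 404 and 395 TPM in control and at 428 and 422 TPM in oeDAZL, with a log2 fold change of 0.090. KRT17, the nearest at 3.54 kb, had the next highest fold change after KRT16, and KRT19 at 81.5 kb had 0.15. Of these 5 genes KRT16 alone was called. No call among its neighbours is near the background, since 0.126% of all tested genes were called higher and 0.563% lower.

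The genes that work with keratins were examined as lists. Of 16 other intermediate filament genes, 12 were tested and none was called by limma, while 2 were higher and 1 lower at an unadjusted p of at most 0.05 (5.02% and 15.2% of all tested genes), with a median log2 fold change of 0.18. The mesenchymal filament gene VIM was at 1188 and 1460 TPM in control and at 1539 and 1469 TPM in oeDAZL. NES, the filament of neural progenitors, had a log2 fold change of 0.52, while the nuclear lamina genes LMNA and LMNB2 were at 0.17 and 0.00045. Of 21 desmosome, hemidesmosome and plakin genes, 15 were tested and none was called, with 1 higher and 2 lower at that p and a median of -0.11. DSP, which links keratin filaments to desmosomes, was at 1153 and 967 TPM in control and at 887 and 934 TPM in oeDAZL, with a log2 fold change of -0.21 and an adjusted limma p of 0.254. JUP and PKP2, which join DSP to the desmosomal cadherins, were at 0.011 and 0.0032, and the tetraspanin gene CD151 was at -0.035. Over all tested genes, 0.126% were called higher and 0.563% lower, so no call among these 12 and 15 genes is near the background.

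Cornified envelope genes, which mark the end of epidermal differentiation, were mostly listed at 0. Of 18 found in the table, 13 were at 0, including IVL, LOR and the SPRR genes, and 2 were tested, at a median of 0.25. TGM1, the cross-linking enzyme of the envelope, lay between 17.1 and 18.6 TPM, and CNFN was at 1.85 and 1.71 TPM in control and at 3.43 and 2.66 TPM in oeDAZL. Neither was called by limma, while CNFN was higher at an unadjusted p of 0.0376 with a log2 fold change of 0.53, which makes 1 of 2 at a p of at most 0.05, against 5.02% of all tested genes. Of 6 basal epidermis markers, of which 3 are keratins, 4 were tested and none was called by limma, with 1 higher at an unadjusted p of at most 0.05 (5.02% of all tested genes). The most abundant, the hemidesmosome integrin ITGB4, had a log2 fold change of 0.28, and TP63, the master regulator of stratified epithelium, lay between 1.89 and 5.51 TPM with overlapping groups. The list summed to 27.0 and 27.8 TPM in control and to 30.5 and 30.9 TPM in oeDAZL, and its defining pair of KRT5 and KRT14 was near 0.

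Regulators of keratin genes were also compared. Of 15 epithelial regulators, mostly transcription factors, 13 were tested and none was called by limma, with 2 higher and 1 lower at an unadjusted p of at most 0.05 (5.02% and 15.2% of all tested genes) and a median of -0.064. TFAP2A lay between 149 and 170 TPM with a log2 fold change of 0.0053, GRHL2 was at -0.080, and the splicing regulators ESRP1 and ESRP2 were at -0.031 and -0.21. Of 22 regulators linked to stress keratins, 14 were tested and none was called, with 2 higher at that p and a median of 0.14. FOS, an AP-1 subunit, was at 56.9 and 47.6 TPM in control and at 65.9 and 67.5 TPM in oeDAZL, with an adjusted limma p of 0.140. Its partner JUN had a log2 fold change of -0.24, and the oxidative stress regulator NFE2L2 and its target NQO1 were at 0.065 and 0.22. No regulator on these lists passed the call that KRT16 passed. With 0.126% of all tested genes called higher and 0.563% lower, no call among 13 and 14 genes is near the background.

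Keratins of simple epithelia are also made by amnion and trophoblast, so markers of these and other cell types were measured in the same libraries. Of 15 amnion and trophoblast markers, 11 were tested, at a median of -0.38, with 2 higher and 4 lower at an unadjusted limma p of at most 0.05 (5.02% and 15.2% of all tested genes), and 1 was called lower, against 0.563% of all tested genes. This was CGA, the alpha chain of chorionic gonadotropin, at 15.5 and 10.4 TPM in control and at 4.34 and 5.82 TPM in oeDAZL, and it was not called without control replicate 1 (log2 fold change -0.92). The list summed to 3104 and 2890 TPM in control and to 3051 and 3127 TPM in oeDAZL, with GABRP between 1208 and 1408 TPM and HAND1 between 958 and 1250 TPM as the most abundant genes. HAND1 had a log2 fold change of 0.32, VTCN1 of -0.38 and TFAP2A as above, and no gene of the list was at 0. Their part in the level of the simple keratins was not tested.

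Mesenchyme markers were called lower in 2 of 12 tested genes, against 0.563% of all tested genes, at a median of -0.19. At an unadjusted limma p of at most 0.05, 1 was higher and 6 were lower, against 5.02% and 15.2% of all tested genes. With median-of-ratios scaling, 1872 of all tested genes were higher and 1366 lower at this p. The markers were not recounted under that scaling. COL3A1 fell by 1.25 on the log2 scale and was called with any library left out, whereas DCN was at -1.08 and was not called without control replicate 1 (-0.80), while COL1A2 was at -0.19 and COL1A1 at -0.55. This list summed to 4015 and 4245 TPM in control and to 3590 and 3538 TPM in oeDAZL, with VIM as its most abundant gene and none at 0. Of 9 endoderm markers, 8 were tested at a median of -0.10 and AFP was called lower, at 36.3 and 13.1 TPM in control and at 8.91 and 11.6 TPM in oeDAZL. The log2 fold change of AFP was -1.04, and it was not called without control replicate 1 (-0.34) or without oeDAZL replicate 1 (-0.87). The endoderm list had sums of 277 and 170 TPM in control and of 173 and 214 TPM in oeDAZL, led by APOA1. Of 8 neural markers, 4 were tested at a median of -0.091 and PAX6 was called lower, at 3.83 and 1.14 TPM in control and at 0.0967 and 0.558 TPM in oeDAZL. The log2 fold change of PAX6 was -1.30, and it was not called without control replicate 1 (-0.71) or without oeDAZL replicate 1 (unadjusted limma p of 0.0713). The neural list had sums of 450 and 585 TPM in control and of 696 and 642 TPM in oeDAZL, led by NES. Of 8 pluripotency markers, 7 were tested at a median of 0.063 and none was called by limma, though 3 were higher at an unadjusted p of at most 0.05 (5.02% of all tested genes), with LIN28A as the most abundant gene. The 10 germ cell markers summed to 84.5 and 73.8 TPM in control and to 182 and 185 TPM in oeDAZL, at a median of -0.066; without DAZL the oeDAZL sums were 80.7 and 84.2 TPM, so the difference was DAZL itself. Fewer cells of a type and less RNA per cell cannot be told apart here either, and the part of these markers in the KRT16 difference was not tested.

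**Figure D4:**
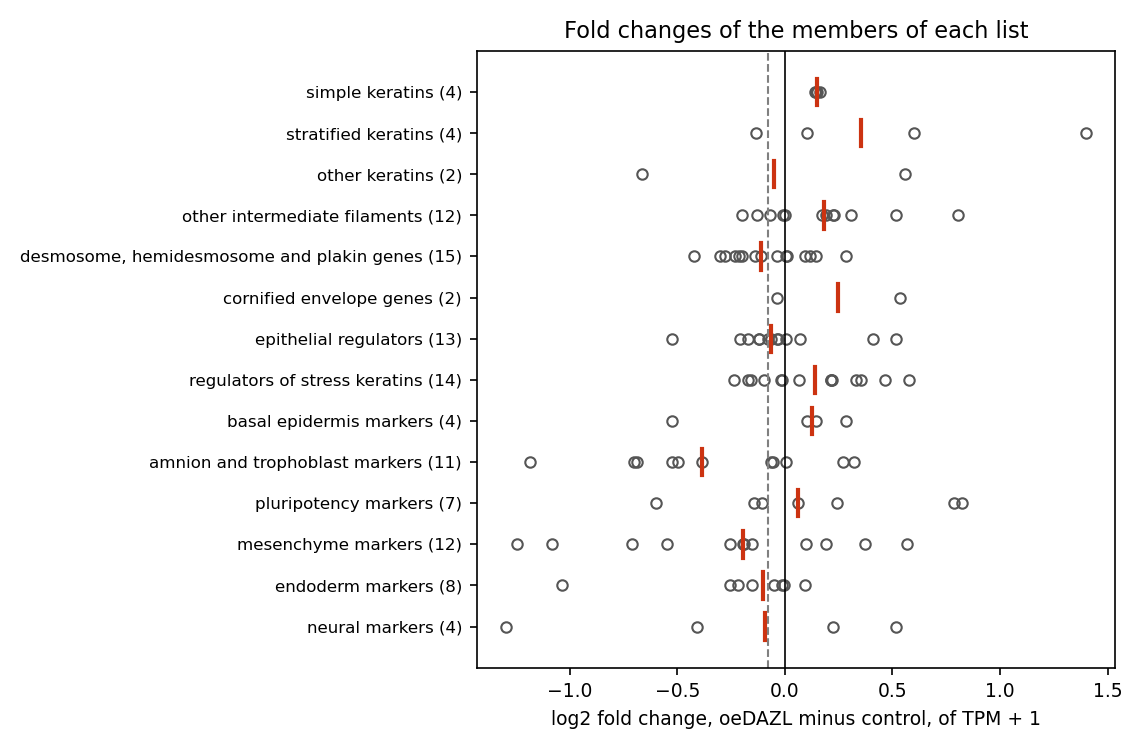
Log2 fold change of TPM + 1 in oeDAZL minus control for each tested member (open circles) of the gene lists, with the number of tested members in brackets and the median of each list as a red bar. The dashed line is the median of all tested genes at -0.078, KRT16 at 1.40 is the rightmost circle, and the germ cell markers are left out because DAZL lies at 6.65.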

How the data were processed

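RNA was sequenced in 2 control and 2 oeDAZL samples, and the 6 miRNA samples were not analysed here. The authors deposited 1 table of TPM per gene, with a column for each library. Their processing notes list Trim Galore 0.6.4, cutadapt 1.18, HISAT2 2.1.0, Bowtie 1.0.0, StringTie 2.1.4 and hg38, and the study's methods keep reads that map uniquely; the annotation release is not given in the sources used here. Columns named wt and dazl were matched to the control and oeDAZL samples by genotype label and replicate number. Of 65003 entries, 45 pseudoautosomal copies on chromosome Y and 18 repeats were left out.

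TPM was taken as log2(TPM + 1), and genes with a mean of at least 1 TPM were fitted with limma 3.58.1 (lmFit, eBayes with trend) in R 4.3.3, without covariates, and adjusted over all of them after Benjamini and Hochberg. The fit was tested on simulated data. Sums and ratios were compared by exact permutation with SciPy 1.17.1. Positions and transcripts come from GENCODE 44 on hg38, aligned with Biopython 1.88 (match 1, mismatch -1, gap opening -5, gap extension -0.5). The members and gene lists were chosen with earlier results of these data known. Genes named are the keratins with a mean of at least 1 TPM, KRT14, KRT16, KRT17, the called and up to 4 most abundant members of other lists, neighbours of KRT16 and the highest pseudogenes; low keratins, defining markers at or near 0 and other members beyond these were named after their values were seen. Alternatives changed the pseudocount, filter, scaling, trend, replicate block and libraries used.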

Additional observations from a re-analysis of the deposited data

How the results depend on the processing

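KRT16 was called under all alternatives tried, and no other keratin was. Over the libraries left out in turn its log2 fold change ran from 1.34 to 1.46. KRT19 changed sign, to -0.0086, with quantile normalization, and the cause was not tested. The median of the simple keratins was 0.25 under median-of-ratios scaling, 0.046 under quantile normalization and 0.093 to 0.20 with a library left out. That of the stratified keratins was -0.017 without a filter on TPM and 0.60 with a mean of at least 5 TPM, where the set of genes differs, and 0.49 with quantile normalization. The log2 ratio of summed keratin TPM was 0.25 with median-of-ratios scaling and 0.037 with quantile normalization. The KRT16 share differed by 8.86 points when the pseudogenes of each of the 3 genes were added to their gene. Calls over all genes, 21 higher and 94 lower, became 55 and 267 after adding 0.1 in place of 1 to the TPM, 6 and 23 with a mean of at least 5 TPM, 38 and 51 under quantile normalization, 26 and 68 under median-of-ratios scaling, 35 and 85 without control replicate 1, 87 and 235 without control replicate 2, 44 and 131 without oeDAZL replicate 1, and 45 and 187 without oeDAZL replicate 2, where the lone library is assumed to vary like the other group. Genes at an adjusted limma p of at most 0.05 numbered 10. They numbered 4 with the replicate block, 3 with either median-of-ratios scaling or quantile normalization, and 1 without a filter on TPM or without limma's trend. No keratin was among them without the filter or without the trend. Same-numbered libraries deviated from their group means with a correlation of -0.104 across genes, so a shared number did not go with a shared deviation. With the replicate block the limma adjusted p of KRT16 was 0.0466, 26 genes were called higher and 99 lower, and no call among the keratins changed. With the numbers crossed, an alternative added after seeing the data, 28 and 107 were called, and 1089 genes, of which 3 were keratins (KRT16, KRT17 and KRT80), were at an adjusted limma p of at most 0.05. On the first principal component control replicate 1 was at -30.1, control replicate 2 at -7.97 and oeDAZL at 22.4 and 15.7, so it parted the groups and also the control libraries. The depth is unknown, so how far it limits the low keratins cannot be given.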
